A study of Homo sapiens with 6 samples.

Results

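NDRG1, VEGFA, ADM, EGLN1, EGLN3, BNIP3, BNIP3L, CA9, ANKRD37 and HIF1A are 10 of the 58735 genes in the deposited count table: the oxygen-responsive transcription factor subunit HIF1A and 9 genes known to be induced by hypoxia that do not encode glycolytic enzymes. They were chosen by gene name, with their values in the comparison of the 2 groups already known, so that comparison is given for them as a description and not as a test. RNA sequencing was done on 6 libraries of A549, an established line from a human lung adenocarcinoma, labelled as alveolar epithelium. In 3 libraries the cells had received PQ (paraquat, a herbicide that makes superoxide by redox cycling) together with SS-31, a mitochondria-targeted peptide, and in 3 libraries PQ alone; all carried the label 48 h. Both groups therefore share the PQ exposure, and no untreated library was analysed here, so no value below measures what PQ itself did. The sources used here give neither the doses nor the oxygen tension of the cultures. The labels do not state whether replicates came from separate cultures, so p-values here measure only the spread between these libraries, which may be technical.

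In cells with enough oxygen, prolyl hydroxylases of the EGLN family mark the HIF alpha subunits for destruction through the ubiquitin ligase subunit VHL. When oxygen is low the alpha subunits persist, pair with ARNT and switch on genes for angiogenesis, pH control, mitophagy and glycolysis. EGLN1 and EGLN3 are themselves among the induced genes, which closes a negative feedback loop. HIF1A is controlled mainly at the level of its protein, which was not measured here. NDRG1, a cytoplasmic stress-response protein phosphorylated by SGK1 and GSK3B, is known to rise with hypoxia and also with iron chelation and other stresses.

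HIF binds DNA at a core that reads ACGTG or GCGTG. Both were searched, on both strands, in RefSeq promoter windows on GRCh38.p14 that run from 250 bases before to 50 bases after each gene start. Windows were found for 7 of the 10 genes, and 6 of the 7 held at least 1 of the cores, against 48.4% of all 35116 windows. HIF1A is counted among the 6 through 1 of its 2 windows. NDRG1, VEGFA and BNIP3L had no window and were not searched. The ACGTG core was present in EGLN1, BNIP3, CA9 and ANKRD37, against 21.4% of all windows. The stretches around these matches are shown so that the core can be seen in its context. They read 5′ to 3′ on the strand of the gene, with ACGTG, its reverse complement CACGT or both overlapping as CACGTG in capitals.
EGLN1, chr1:231422286-231422310, minus strand: gccgtggtgtACGTGcagagcgcgc
BNIP3, chr10:131982042-131982067, minus strand: gcacgcgccgCACGTGccacacgcac
CA9, chr9:35673900-35673924, plus strand: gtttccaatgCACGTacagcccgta
ANKRD37, chr4:185396669-185396694, plus strand: cgccgggctcCACGTGccagtgtttg
ANKRD37, chr4:185396688-185396712, plus strand: gtgtttgtgtACGTGcggccgtggc
The matches began 13 bases before the RefSeq gene start in EGLN1, 134 in BNIP3, 18 in CA9, and 162 and 143 in ANKRD37. BNIP3 also held 4 matches of GCGTG, which was matched in 36.5% of all windows. ADM had 1 GCGTG match, and HIF1A had 1 GCGTG match in the first of its 2 windows. EGLN3 had no match in its window. A match describes letters only.

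NDRG1 showed the largest difference of the 9 genes with enough counts to be fitted. Its level was 100.7, 97.9 and 101.004 CPM in the PQ+SS-31 libraries, against 189.7, 176 and 171 CPM in the PQ libraries, where CPM is the count relative to the library total, scaled by TMM factors. The groups did not overlap, and the lowest PQ library stood far above the highest PQ+SS-31 library. The means were 99.9 ± 1.69 CPM with PQ+SS-31 and 179 ± 9.82 CPM with PQ (SD, n = 3 each), a level 1.79-fold lower with SS-31. The log2 fold change of PQ+SS-31 over PQ was -0.84 ± 0.08 (SE). In bulk RNA, fewer cells that hold a transcript and less of it per cell cannot be told apart, which applies to every value here. NDRG1 (ENSG00000104419, chromosome 8, 133237171 to 133302022, minus strand, GRCh38) overlaps no other gene in the table.

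By edgeR's quasi-likelihood fit with Benjamini-Hochberg adjustment over all 15550 tested genes, 92 genes were called (0.592%), 72 of them lower with SS-31 (0.463%) and 20 higher (0.129%), at a threshold of 0.05. NDRG1 was the 1 member among these calls, and 0 were among the higher calls. Because the members were picked with these values known, nothing is read from that count. In refits without 1 library the NDRG1 log2 fold change stayed between -0.88 and -0.80, and it was among the calls without PQ replicate 2 or 3 but not without PQ replicate 1 or any PQ+SS-31 library.

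Among the secreted members, VEGFA, the main angiogenic growth factor, was lower with SS-31. It stood at 88.2, 76.7 and 81.9 CPM in the PQ+SS-31 libraries, against 111, 94.1 and 126 CPM in the PQ libraries. The groups did not overlap, but the gap between them, 88.2 to 94.1 CPM, was smaller than the spread inside the PQ group. The log2 fold change was -0.42 ± 0.12 (SE), from means of 82.3 ± 5.79 CPM with PQ+SS-31 and 110 ± 16 CPM with PQ (SD, n = 3 each). ADM, which encodes the vasodilator peptide adrenomedullin, was at 51.1, 39.0 and 42.8 CPM with PQ+SS-31 and at 53.8, 43.8 and 63.5 CPM with PQ. Its groups overlapped, and its log2 fold change was -0.28 ± 0.15 (SE), or -0.15 without PQ replicate 3.

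Of the oxygen sensing members, HIF1A and EGLN3 had positive log2 fold changes and EGLN1 a negative one, with overlapping groups in HIF1A and EGLN1. HIF1A was at 722, 860 and 845 CPM in the PQ+SS-31 libraries, against 674, 737 and 623 CPM in the PQ libraries. PQ+SS-31 replicate 1 lay below PQ replicate 2, so the groups overlapped, and the log2 fold change was 0.26 ± 0.11 (SE). EGLN1, the prolyl hydroxylase that sets HIF levels under normal oxygen, was at 250, 288 and 254 CPM with PQ+SS-31 and at 305, 329 and 249 CPM with PQ. Its groups overlapped through PQ replicate 3, and its log2 fold change was -0.16 ± 0.12 (SE), or -0.07 without PQ replicate 2 and -0.27 without PQ replicate 3. EGLN3, a prolyl hydroxylase strongly induced by hypoxia in many cells, was at 7.46, 8.08 and 9.61 CPM with PQ+SS-31, against 6.05, 6.51 and 5.93 CPM with PQ. All 3 PQ+SS-31 libraries were above all 3 PQ libraries, with a log2 fold change of 0.44 ± 0.16 (SE), on 102 to 165 counts per library. The annotated span of EGLN3 (chromosome 14, 33924231 to 34462774) takes in SPTSSA on the same strand, which had 1257 to 1972 counts.

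The mitophagy receptors BNIP3 and BNIP3L, outer-membrane proteins that recruit LC3 to mitochondria, had group means that differed by less than the spread between libraries. BNIP3 was at 82.0, 73.8 and 71.3 CPM with PQ+SS-31 and at 75.9, 72.4 and 78.2 CPM with PQ, with a log2 fold change of 0.00 ± 0.09 (SE). BNIP3L was at 83.2, 93.4 and 95.6 CPM with PQ+SS-31 and at 89.6, 97.4 and 83.1 CPM with PQ, with a log2 fold change of 0.01 ± 0.10 (SE). Both genes had overlapping groups. The 39 processed pseudogenes named after BNIP3 together had 8 to 21 counts per library, and reads they share with BNIP3 could not be told apart. BNIP3L, with 1429 to 1642 counts, overlaps PNMA2 on the other strand (876 to 1107 counts), and the strand setting is not given.

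The remaining targets were scarce. ANKRD37, an ankyrin repeat protein with a strong hypoxia response in many cell types, was at 2.66, 1.54 and 1.46 CPM with PQ+SS-31 and at 1.602, 1.52 and 2.501 CPM with PQ, from 24 to 46 counts. Its groups overlapped fully, with a log2 fold change of 0.01 ± 0.34 (SE). It overlaps UFSP2 on the other strand (194 to 246 counts), and whether counting used strand is not given. CA9, the membrane carbonic anhydrase often used as a hypoxia marker, had 11, 8 and 5 counts with PQ+SS-31 and 11, 3 and 3 counts with PQ, and did not pass the filter on low counts. It overlaps ARHGEF39 on the other strand, which had 81 to 210 counts, so even these few reads are uncertain. No difference in CA9 was detectable at this depth. Of the 9 genes that passed the filter, the groups did not overlap in 3: NDRG1 and VEGFA were lower and EGLN3 was higher with SS-31. Over all tested genes the groups did not overlap in 18%, with 8.86% lower and 9.16% higher.

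**Figure D1:**
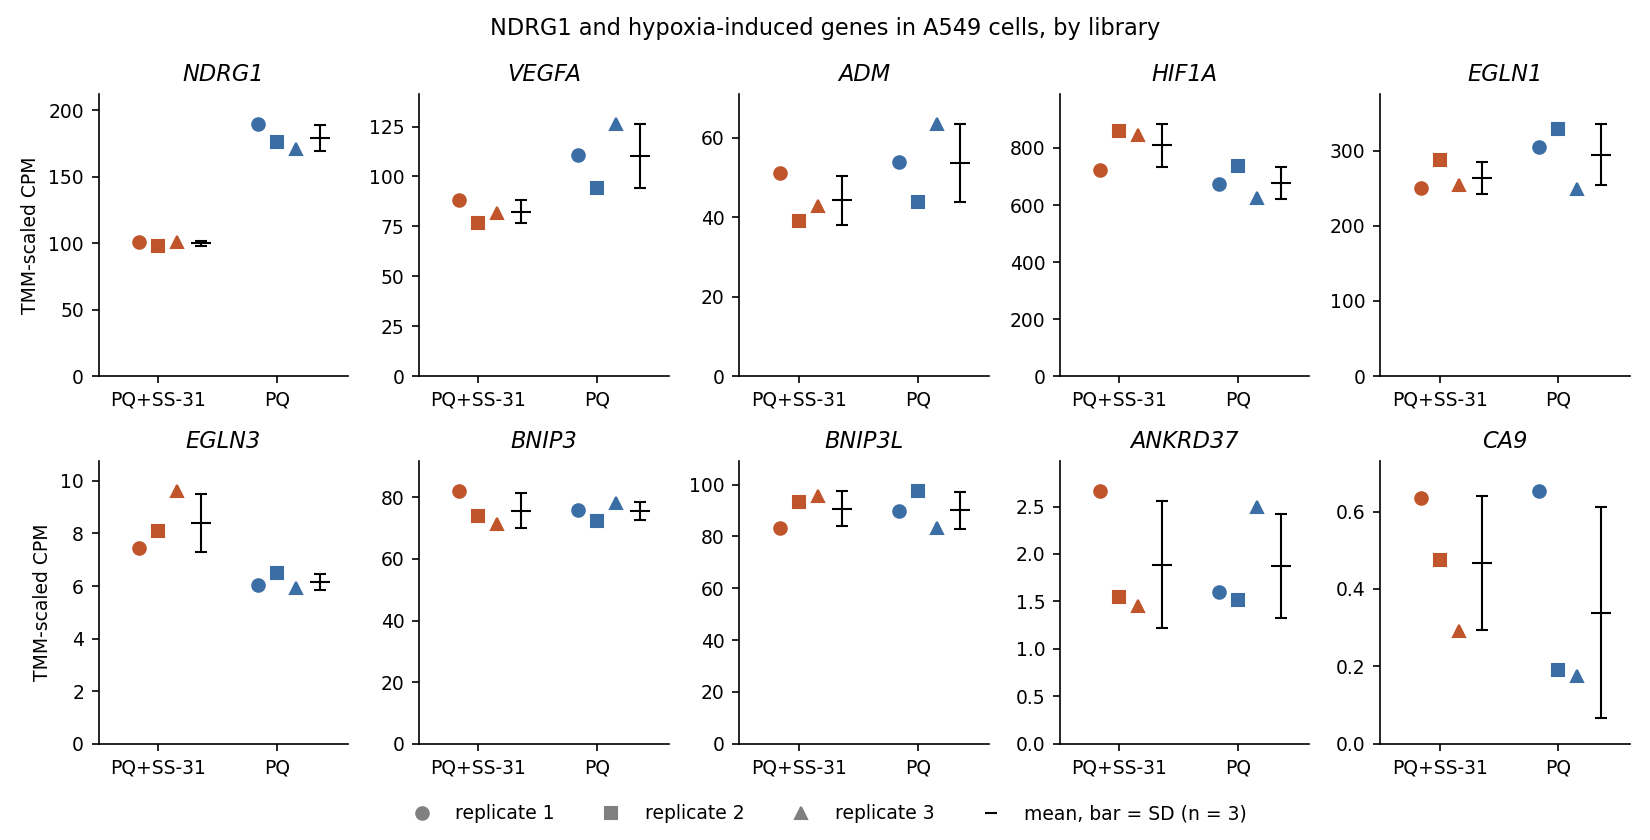
TMM-scaled CPM (y axis, from 0) of each of the 10 genes in the 3 PQ+SS-31 and 3 PQ libraries, with marker shape for replicate number and a black mark for the mean with its SD. NDRG1 shows tight, separate groups near 99.9 and 179 CPM, VEGFA and EGLN3 separate with a small gap, and the others overlap.

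Levels can be compared between genes only per length, here as CPM per kb of the deposited gene length. HIF1A was the most abundant at 157 ± 14.7 CPM per kb with PQ+SS-31 and 132 ± 11 CPM per kb with PQ (SD, n = 3 each), above 98.9% of the tested protein-coding genes by its mean over all 6 libraries. EGLN1 came next at 36.3 ± 2.91 CPM per kb with PQ+SS-31 and 40.5 ± 5.64 CPM per kb with PQ. BNIP3L, ADM, NDRG1 and BNIP3 formed a middle band in the PQ libraries, from 13.6 to 23.4 CPM per kb. Within that band the order of NDRG1 and BNIP3 differed between the groups. NDRG1 stood above BNIP3 in all 3 PQ libraries (17.4 to 19.3 CPM per kb for NDRG1, 13.6 to 14.7 for BNIP3) and below it in all 3 PQ+SS-31 libraries (9.97 to 10.3 for NDRG1, 13.4 to 15.4 for BNIP3). This order rests on the deposited lengths, 9823 bases for NDRG1 and 5325 bases for BNIP3, which may differ from those of the transcripts present. By CPM alone NDRG1 stood above BNIP3 in all 6 libraries. BNIP3L and ADM overlapped in the PQ libraries and did not in the PQ+SS-31 libraries. VEGFA, whose deposited length of 14431 bases is the longest of the 10, was at 5.70 ± 0.40 CPM per kb with PQ+SS-31 and 7.65 ± 1.11 CPM per kb with PQ. EGLN3, ANKRD37 and CA9 made up the low end, at 1.14, 0.73 and 0.28 CPM per kb with PQ+SS-31 and 0.84, 0.73 and 0.20 CPM per kb with PQ. EGLN3 and ANKRD37 overlapped in both groups.

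**Figure D2:**
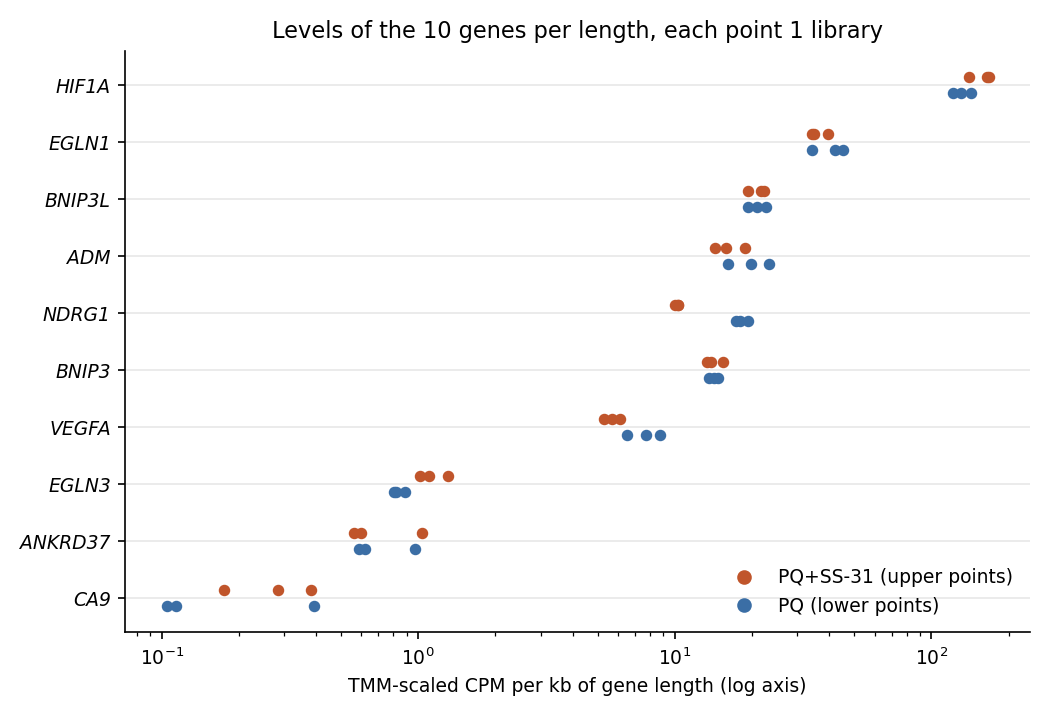
TMM-scaled CPM per kb of gene length (log x axis) for the 10 genes, 1 point per library, with PQ+SS-31 above PQ in each row. The genes span from 0.10 CPM per kb for CA9 to 167 for HIF1A. NDRG1 lies at higher values than BNIP3 in the PQ points and at lower values in the PQ+SS-31 points.

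The spread inside the groups does not use the difference between them, and there 8 of the 9 fitted genes moved with the same pair of libraries. VEGFA, ADM, BNIP3 and ANKRD37 were each highest in PQ+SS-31 replicate 1 among the PQ+SS-31 libraries and in PQ replicate 3 among the PQ libraries. HIF1A, EGLN1, BNIP3L and EGLN3 were each lowest in those same libraries. In ADM, for example, PQ+SS-31 replicate 1 stood 0.21 above its group mean and PQ replicate 3 stood 0.26 above its own on the log2 scale, while in HIF1A they stood at -0.16 and -0.12. The paralogs BNIP3 and BNIP3L thus deviated in opposite directions in these libraries (0.12 and 0.05 for BNIP3, -0.12 and -0.11 for BNIP3L). This pattern was noticed after the values were seen. Being highest in both libraries or lowest in both applied to 44.9% of all tested genes, so it is a common feature of these libraries. These 2 libraries also had the lowest share of counts from mitochondrial genes in their groups, at 8.39% in PQ+SS-31 replicate 1 against 12.6% in each of the other PQ+SS-31 libraries, and at 9.08% in PQ replicate 3 against 9.95% and 11.9% in the other PQ libraries. Their TMM factors were the highest, 1.05 in both. Whether these shares play a part in the members' spread was not tested.

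NDRG1 did not follow this pattern, which was also so for most of the tested genes. Its standard deviation inside the groups was 0.06 on the log2 scale. The median was 0.12 over the 1563 tested genes within 1.5-fold of its mean CPM, and 11% of those genes varied less. The same share was 18.3% for EGLN3, 26.8% for BNIP3 and 45.8% for BNIP3L, and 55.6% to 87.2% for the other fitted members. NDRG1 was picked with its values known, and a small p favours genes with a low spread. Nothing is therefore read from its low spread. ADM varied most among the well-expressed members, with 0.24, and ANKRD37, at 1.88 CPM, had 0.42. With both PQ+SS-31 replicate 1 and PQ replicate 3 left out, a setting chosen after seeing the data, the log2 fold changes were -0.88 ± 0.09 for NDRG1, -0.37 ± 0.10 for VEGFA, -0.26 ± 0.12 for ADM, 0.27 ± 0.08 for HIF1A, -0.23 ± 0.09 for EGLN1 and 0.49 ± 0.19 for EGLN3 (SE). Those of BNIP3 and ANKRD37 were then slightly negative, at -0.03 ± 0.09 and -0.06 ± 0.36.

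**Figure D3:**
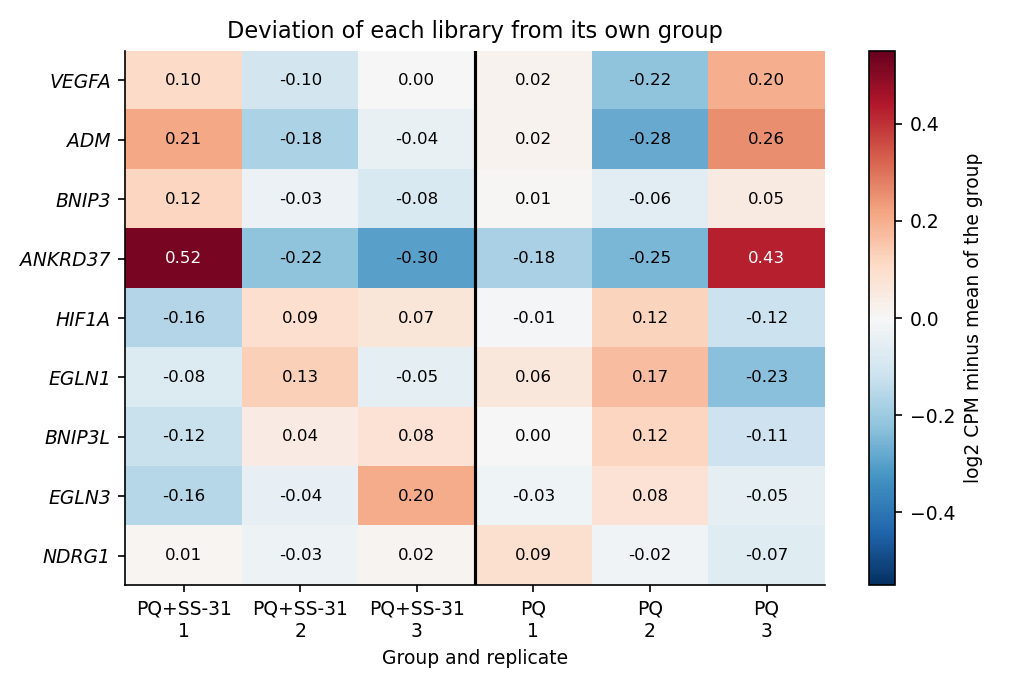
Deviation of log2 CPM from the mean of the library's own group for the 9 fitted genes (rows) in the PQ+SS-31 and PQ libraries (columns), red above and blue below. PQ+SS-31 replicate 1 and PQ replicate 3 are red in the top 4 rows and blue in the next 4, while NDRG1 stays between -0.07 and 0.09.

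The genes whose log2 CPM over the 6 libraries was most like that of NDRG1 were sought among 10874 other protein-coding genes of at least 5 CPM, by Pearson correlation. ODC1, the first enzyme of polyamine synthesis, came first with r = 0.997, at 256, 260 and 256 CPM with PQ+SS-31 and 382, 376 and 364 CPM with PQ. It was followed by CEBPG, a basic leucine zipper transcription factor (r = 0.996), TRIB3, a pseudokinase that binds AKT (r = 0.996), AP1AR, a regulator of adaptor complex trafficking (r = 0.995), and SAMD4A, an RNA-binding translational repressor (r = 0.994). In all 5 the PQ+SS-31 libraries lay below the PQ libraries, as for NDRG1. These correlations run over 6 points that fall into 2 groups, so they mostly rank genes by how cleanly the groups separate, and 157 genes had r above 0.95. By deviations from the group means alone the closest were ZMAT2, MORN1 and SUCLG2 (r = 0.997, 0.995 and 0.993), for deviations of NDRG1 that lay between -0.07 and 0.09. They were the highest of 10874 genes over only 6 libraries, and 26 genes had r above 0.95 by this measure.

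The rest of the pathway was examined through 6 lists with 116 genes, none of them members, of which 105 were tested in the same fit. Of these 105, 3 fell with SS-31 and 0 rose, against 0.463% and 0.129% of all tested genes. The 3 were PLIN2, HK2 and SLC2A3. At an unadjusted p under 0.05 by edgeR, 14 were lower and 9 higher, against 5.94% lower and 5.62% higher over all tested genes. The median log2 fold change of the 105 was -0.06, and that of all tested genes was 0.00. The lists were chosen with earlier results of these data known. Comparisons of a list with all tested genes, here and below, are therefore descriptions and not tests.

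The list closest to the members, other non-glycolytic HIF targets, had mostly negative log2 fold changes. Of its 47 genes 42 were tested; 1 fell and 0 rose, 32 had negative log2 fold changes, and the median was -0.12, against 0.00 and 49.9% negative over all tested genes. PLIN2, a lipid droplet coat protein, fell to 72.4, 72.9 and 65.2 CPM in the PQ+SS-31 libraries, against 114, 109 and 117 CPM in the PQ libraries (log2 fold change -0.69 ± 0.08, edgeR adjusted p = 0.0187). KDM3A, an oxygen-dependent histone demethylase, was at 55.1 ± 4.04 CPM with PQ+SS-31 and 75.5 ± 5.81 CPM with PQ (SD, n = 3 each, log2 fold change -0.45, edgeR adjusted p = 0.0965) and did not pass. Its groups did not overlap, and it passed in 5 of 14 alternatives at a log2 fold change between -0.50 and -0.45, among them the replicate block (edgeR adjusted p = 0.0338), DESeq2 (adjusted p = 0.0140) and no filter (edgeR adjusted p = 0.0113). At an unadjusted p of 0.05 the list had 8 lower and 1 higher by edgeR, and DESeq2 called 5 lower and limma-voom 1. Over all 15550 tested genes DESeq2 called 207 lower and limma-voom 74, against 72 by edgeR.

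Glycolytic targets of HIF split. Of 23 tested genes, 2 fell and 0 rose, while 13 had positive log2 fold changes and the median was 0.09. HK2, the inducible hexokinase, fell to 5.73, 9.15 and 8.85 CPM with PQ+SS-31, against 22.7, 21.1 and 18.4 CPM with PQ (log2 fold change -1.39 ± 0.18, edgeR adjusted p = 0.0252). SLC2A3, the glucose transporter GLUT3, fell to 131, 124 and 117 CPM with PQ+SS-31, against 180, 190 and 181 CPM with PQ (log2 fold change -0.57 ± 0.08, edgeR adjusted p = 0.0298). ENO1, an enolase, was at 2878 ± 308 CPM with PQ+SS-31 and 2097 ± 200 CPM with PQ (SD, n = 3 each), with a positive log2 fold change of 0.46 ± 0.12, and did not pass (edgeR adjusted p = 0.165). It passed in 3 of 14 alternatives, with DESeq2 (adjusted p = 0.0212), with no filter (edgeR adjusted p = 0.0230) and with PQ+SS-31 replicate 1 and PQ replicate 3 left out (edgeR adjusted p = 0.0145). At an unadjusted p of 0.05 the list had 7 higher and 3 lower, and DESeq2 called 2 in each direction. Over all 15550 tested genes DESeq2 called 123 higher and 207 lower. PLIN2, HK2 and SLC2A3 each passed in 1 of the 6 refits without 1 library, that without PQ replicate 3. In the other 5 their adjusted p by edgeR ran from 0.0612 to 0.187 for PLIN2, from 0.0692 to 0.217 for HK2 and from 0.109 to 0.241 for SLC2A3.

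**Figure D4:**
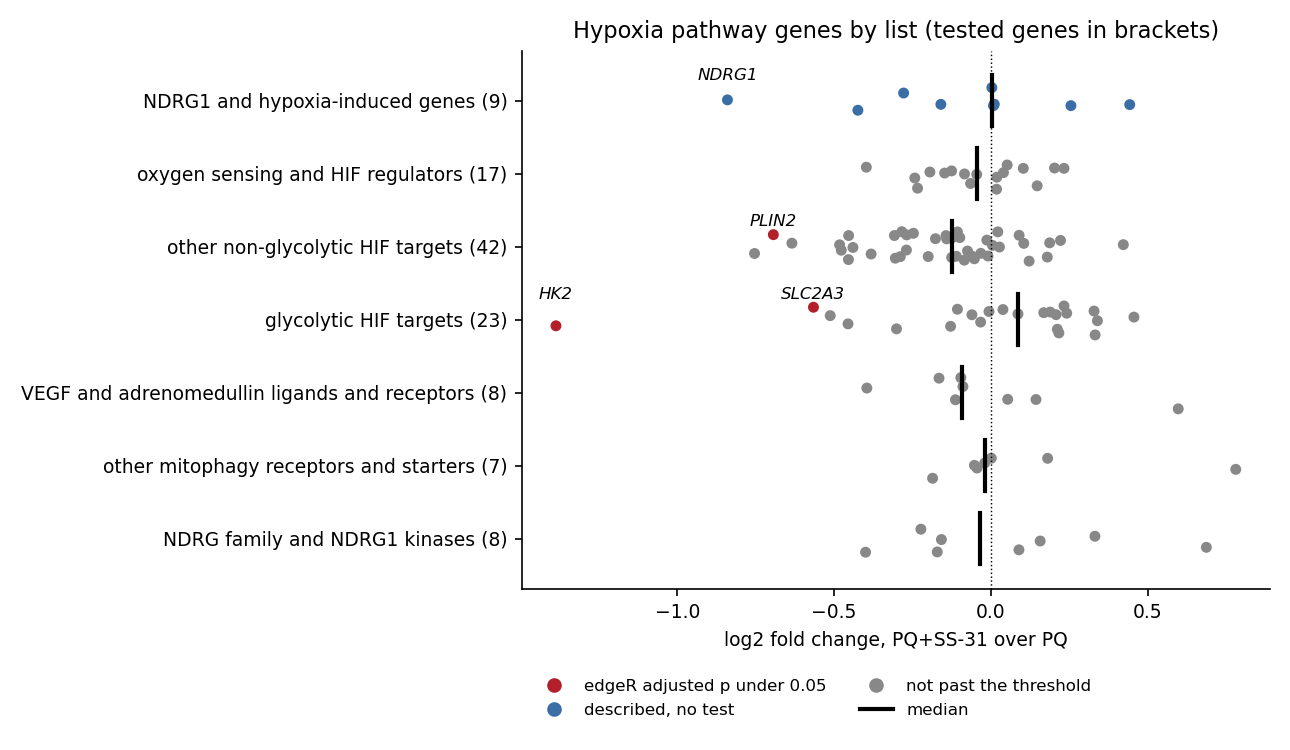
Log2 fold change of PQ+SS-31 over PQ (x axis) for the tested genes of each list (rows), 1 point per gene, with the median as a black bar, red for an edgeR adjusted p under 0.05 and blue for the genes described without a test. PLIN2, HK2 and SLC2A3 are the red points, and the median of the other non-glycolytic HIF targets lies at -0.12.

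The machinery that senses oxygen showed 0 calls. Of 18 regulators, including VHL, ARNT, EPAS1 and the asparaginyl hydroxylase HIF1AN, 17 were tested; edgeR called 0 in either direction, as did DESeq2 and limma-voom, and 2 were lower with an unadjusted edgeR p under 0.05. The median was -0.05. SIAH1 and SIAH2, ubiquitin ligases that target prolyl hydroxylases, had the smallest p, with log2 fold changes of -0.40 ± 0.17 and -0.23 ± 0.10, and ELOB, a subunit of the VHL ligase, had 0.20 ± 0.12 (SE). EPAS1, the HIF-2 alpha subunit, was at 1115 ± 116 CPM with PQ+SS-31 and 1181 ± 121 CPM with PQ (SD, n = 3 each), or 153 CPM per kb with PQ+SS-31 and 162 CPM per kb with PQ.

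Partners of the secreted members, VEGF family ligands and the receptors of VEGF and adrenomedullin, gave 8 tested genes of 12, with 0 calls by edgeR, DESeq2 or limma-voom and 0 at an unadjusted p of 0.05. NRP2, a VEGF co-receptor, VEGFC, a lymphangiogenic ligand, and CALCRL, the adrenomedullin receptor, had the smallest p. Their log2 fold changes were -0.17 ± 0.11, -0.11 ± 0.09 and -0.40 ± 0.33 (SE), that of CALCRL from only 15 to 27 counts per library. FLT1, a VEGF receptor, and RAMP3, an adrenomedullin co-receptor, had 0 counts in every library, which at a floor of 3 counts per library allows up to 0.174 to 0.190 CPM by counting error alone. Of 7 other mitophagy receptors and starters, none was called by edgeR, by DESeq2 or by limma-voom, and 0 had an unadjusted edgeR p under 0.05. The receptor FKBP8 had a log2 fold change of 0.18 ± 0.09 and the receptor BCL2L13 one of -0.19 ± 0.10 (SE).

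NDRG1's own relatives and kinases gave 8 tested genes of 9, of which edgeR, limma-voom and DESeq2 each called 0. With an unadjusted edgeR p under 0.05, 1 was lower and 1 higher. SGK1, which phosphorylates NDRG1, was at 61.4, 54.6 and 55.9 CPM with PQ+SS-31 and 71.7, 69.8 and 85.3 CPM with PQ. Its groups did not overlap, but it did not pass (log2 fold change -0.40 ± 0.10, edgeR adjusted p = 0.157), except with no filter (edgeR adjusted p = 0.0447). SGK2 had 0.69 ± 0.27 at a level of 4.003 CPM with PQ+SS-31 and 2.49 CPM with PQ, and MYC, a known repressor of NDRG1, had -0.22 ± 0.14 (SE). Of the paralogs, which did not pass, NDRG2 had a log2 fold change of 0.33, NDRG3 of 0.09 and NDRG4 of -0.16.

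The 6 libraries had 16332061 to 17576827 counts. The epithelial keratins KRT8 and KRT18 were abundant, at 1939 and 562 CPM with PQ+SS-31 and 1356 and 408 CPM with PQ. KRT19 was scarcer and had overlapping groups, at 12.7 CPM with PQ+SS-31 and 14.9 CPM with PQ. EPCAM had only 7 to 14 counts per library. The 5 epithelial markers summed to 2306 to 2681 CPM with PQ+SS-31 and 1637 to 1889 CPM with PQ, nearly all from KRT8 and KRT18. Of the 5 markers, 1 passed the test, CDH1, the epithelial cadherin. It rose to 21.3, 24.3 and 27.5 CPM with PQ+SS-31, against 14.8, 13.9 and 12.0 CPM with PQ (log2 fold change 0.84 ± 0.14, edgeR adjusted p = 0.0389). The part of this difference in the members' values was not tested. Of the alveolar type II markers, NKX2-1 had 0 counts in every library and the group means of SFTPC, SFTPA1 and SFTPA2 were at most 0.0632 CPM. ABCA3 made up nearly all of that list's sum, 91.7 to 118 CPM with PQ+SS-31 and 98.8 to 132 CPM with PQ. Endothelial markers summed to at most 0.65 CPM in any library, and leukocyte markers to 6.05 to 6.60 CPM with PQ+SS-31 and 3.48 to 4.83 CPM with PQ, nearly all from CD14, with CD3E at 0 counts; the part of this in the members' values was not tested. Fibroblast markers, chiefly COL1A1, summed to 12.6 to 21.4 CPM with PQ+SS-31 and 10.3 to 17.7 CPM with PQ.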

How the data were processed

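The values are raw read counts of genes in 6 libraries, as deposited by the authors in 1 table with gene lengths. The submitters' processing notes list featureCounts 1.5.0-p3, HISAT2 2.0.5, CASAVA and DESeq2 1.20.0, with no order of use. The build listed there is mm10, of the mouse, whereas all 58735 genes of the table are human and match GENCODE 29 (GRCh38) in position and strand. The library kit and the strand setting are not given in the sources used here.

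Columns were matched to samples by the initial of PQ or SS-31 and the replicate number, which left 0 sample columns unused. Genes were filtered with filterByExpr (15550 kept), scaled with TMM factors and fitted with edgeR 4.0.16 (R 4.3.3), quasi-likelihood test, PQ+SS-31 over PQ, Benjamini-Hochberg adjustment, threshold 0.05. SE was derived from the test statistic. Log2 CPM used a prior count of 2. Alternatives were RLE factors, library size alone, no filter, 1 CPM in 3 libraries, a replicate block, DESeq2 1.42.0, limma-voom (limma 3.58.1) and leaving out each library. The fits were tested on simulated data. Counts differed between libraries of 1 group by more than sampling noise (chi-square per degree of freedom 7.32 to 35.6), so all 6 were counted.

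The members and lists were chosen with earlier results of these data known. Named genes are the members, of each list the calls and the 3 genes with the smallest p (2 of these are not reported here), and, by correlation with NDRG1, the 5 most alike overall and the 3 within groups; NDRG2, NDRG3, NDRG4, EPAS1, FLT1 and RAMP3 were added after their values were seen.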

Additional observations from a re-analysis of the deposited data

How the results depend on the processing

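The NDRG1 log2 fold change ran from -0.88 to -0.80 over 14 alternatives. In all 14, VEGFA (-0.53 to -0.32), ADM (-0.40 to -0.15) and EGLN1 (-0.27 to -0.07) kept a negative value and EGLN3 (0.33 to 0.52) and HIF1A (0.19 to 0.33) a positive one, while BNIP3, BNIP3L and ANKRD37 lay near 0 and changed sign in some. Called genes over all genes, 20 higher and 72 lower in the fit as reported, numbered 13 higher with library size alone, 156 higher and 237 lower with no filter, 123 and 207 with DESeq2, and 155 and 201 with both PQ+SS-31 replicate 1 and PQ replicate 3 left out. The other pathway genes, 0 higher and 3 lower as reported, numbered 1 and 9 with no filter, 2 and 7 with DESeq2, and 2 and 6 with those 2 libraries left out. Leaving out 1 library gave 0 to 125 higher and 0 to 203 lower over all genes, and 0 higher and 0 to 4 lower among the pathway genes. The most calls came without PQ replicate 3, and each other omission lowered them. Refits have fewer libraries, and a lost call does not by itself show a smaller difference. The log2 fold change of HK2 was -1.39 in the fit as reported. HK2 lost its call at -1.20 without PQ+SS-31 replicate 1 and at -1.51 without PQ+SS-31 replicate 2.

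With the replicate number as a block, 66 genes were higher and 134 lower over all genes, and 6 pathway genes were lower. Same-numbered libraries deviated from their group means with correlations of -0.09, 0.39 and 0.19. PQ+SS-31 replicates 2 and 3 correlated best with their own number, and PQ+SS-31 replicate 1 with PQ replicate 3 (0.29). Deviations within groups of 3 libraries are too few to decide whether the numbers pair the samples. Depth limits CA9, which was not fitted, and ANKRD37, whose standard error was 0.34.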
